A study of Mus musculus with 8 samples.

Results

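The genes described are 10 components of the circadian clock: *Arntl*, *Clock*, *Per1*, *Per2*, *Per3*, *Cry1*, *Cry2*, *Nr1d1*, *Nr1d2* and *Dbp*. They were taken by gene symbol from the authors' deposited array table, in which each of the 10 has 1 probe set, out of 22206 probe sets in all. The table compares gastrocnemius (GAS) muscles of male C57/Bl6j mice aged 22 weeks, which had received an adeno-associated virus (AAV) at about 10 weeks of age. In MYTHO-KD muscles (4 arrays) the virus carried a short hairpin RNA (AAV sh-RNA MYTHO) against the product of *D230025D16Rik*, the gene that encodes MYTHO. In scramble muscles (4 arrays) it carried a hairpin with a scrambled sequence (AAV sh-RNA scrmb), and each control muscle came from the opposite leg of an injected animal. Both hairpins were driven by the U6 promoter, which is not restricted to muscle fibres, so other cells that took up the virus could also carry the hairpin. Both legs of an animal were exposed to the same light cycle and feeding. The hour at which the muscles were collected is not given in the sources used here.

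The clock of mammalian cells is a transcriptional loop with a period of about a day. CLOCK and BMAL1, the product of *Arntl*, bind E-boxes and activate the *Per*, *Cry* and *Nr1d* genes and *Dbp*. PER and CRY proteins then gather and block CLOCK and BMAL1. In a further loop, REV-ERB alpha and beta, the products of *Nr1d1* and *Nr1d2*, repress *Arntl* through ROR response elements (ROREs), which the ROR receptors use to activate it. DBP and its relatives TEF and HLF act on D-boxes, where NFIL3 opposes them. In skeletal muscle this clock is known to time genes of glucose and fat use, and because its transcripts swing over the day, their level at a single collection time depends on the hour.

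The promoter stretches below are shown because they hold the letters of motifs known to bind clock factors. They come from the RefSeq promoter table of build GRCm38.p6, which holds 13 windows for 9 of the 10 genes. It holds none for *Per2*, whose promoter was therefore not searched. Each window runs from 250 bases before to 50 bases after a transcript start. Exact matches were sought on both strands to the E-box CACGTG, its variant CACGTT (the E'-box, added after the other motifs had been searched), the D-box as TTATGTAA or TTACGTAA, the RORE core TAGGTCA and the cAMP response element TGACGTCA. Stretches are written 5′ to 3′ on the strand of the gene, with the matches in capitals. They lie at chr7:113207501-113207560 (*Arntl*, plus strand), chr11:69098743-69098828 (*Per1*, plus strand), chr10:85185069-85185173 (*Cry1*, minus strand), chr4:151044776-151044910 (*Per3*, minus strand), chr2:92434190-92434275 (*Cry2*, minus strand) and chr11:98775360-98775445 (*Nr1d1*, minus strand).
Arntl: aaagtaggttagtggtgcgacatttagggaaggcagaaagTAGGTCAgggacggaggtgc
Per1: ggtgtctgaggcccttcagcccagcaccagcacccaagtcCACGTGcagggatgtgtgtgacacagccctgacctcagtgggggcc
Cry1: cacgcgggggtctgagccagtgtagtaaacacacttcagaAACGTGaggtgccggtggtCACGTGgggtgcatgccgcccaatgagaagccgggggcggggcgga
Per3: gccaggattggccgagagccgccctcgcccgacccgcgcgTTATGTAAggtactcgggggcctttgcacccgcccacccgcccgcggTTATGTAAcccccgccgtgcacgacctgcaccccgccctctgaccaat
Cry2: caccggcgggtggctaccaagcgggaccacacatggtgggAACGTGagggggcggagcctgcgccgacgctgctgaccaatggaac
Nr1d1: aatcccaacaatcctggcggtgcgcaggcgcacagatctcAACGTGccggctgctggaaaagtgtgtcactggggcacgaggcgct

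The RORE core of *Arntl* begins at base 31 of the transcript. The E-box of *Per1* begins 166 bases and that of *Cry1* 60 bases before the start, and the D-boxes of *Per3* begin 205 and 158 bases before it. The capitals in *Cry2* and *Nr1d1*, and the first ones in *Cry1*, mark the E'-box read on the opposite strand. Of all 32851 promoter windows in the table, 7.15% hold an E-box, 4.68% an E'-box, 0.938% the D-box TTATGTAA and 2.61% the RORE core. No window of the clock genes held TTACGTAA, present in 0.119% of all windows, or the cAMP response element, present in 1.79%. The windows of *Clock*, *Nr1d2* and *Dbp* held none of these letters. These matches describe the letters in the windows and are not measurements of binding.

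The values are signals of Clariom S Mouse arrays on the log2 scale, normalized by the authors, who give an average and a standard deviation (SD) of each group for every probe set. Values of single arrays were not used here, so each gene is given by these 2 averages and SDs. Signals of different probe sets are not on a common scale, and no level is set against that of another gene. The target itself, *D230025D16Rik*, averaged 10.02 (SD 0.37) in scramble and 7.71 (SD 0.66) in MYTHO-KD muscles, which leaves 20.2% of the scramble signal. The fibre markers *Acta1*, *Myh4* and *Atp2a1* all stood at 19.93 in both groups, the highest average in the table. Their SD was 0 in both groups, so a rise could not be read from them. Of the 10 fibre markers 3 were higher, 4 lower and these 3 equal, led by *Mb* (0.93), *Myh7* (-0.73) and *Myh1* (0.59). The 3 higher ones, *Mb*, *Myh1* and *Myh2* (0.41), had unadjusted p-values of 0.000409, 0.00873 and 0.0197 (limma). None of the 10 was called by the limits given below or had an adjusted p under 0.05 (lowest 0.0754, limma). The clock genes lay between 7.73 and 17.22 in scramble muscles, below that limit, and the software marked all of them as expressed in both groups. Differences are MYTHO-KD minus scramble on the log2 scale, tested with limma's moderated test computed from the averages and SDs, with p-values adjusted over all 22206 probe sets by Benjamini-Hochberg.

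No clock gene differed between MYTHO-KD and scramble muscles by 2-fold with an unadjusted p under 0.05, the limits used in the study's methods. Of all probe sets, 0.86% were called higher and 0.257% called lower by these limits, so that a list of 10 genes would hold few such calls in any case. After adjustment, 0.275% of all probe sets and 0 of the 10 clock genes had a p under 0.05. At an unadjusted p under 0.05 alone, 6.48% of all probe sets were higher and 5.52% lower, against 0 and 1 of the clock genes. Of the 10, 5 were higher and 5 lower in MYTHO-KD muscles, with a median difference of -0.01, which is also the median of all probe sets. The median size of the difference, whatever its sign, was 0.24 for the clock genes and 0.18 for all probe sets. The 95% interval lay wholly inside 2-fold for 8 of the 10 clock genes and for 89.2% of all probe sets, and the exceptions were *Per1* and *Per2*.

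**Figure D1:**
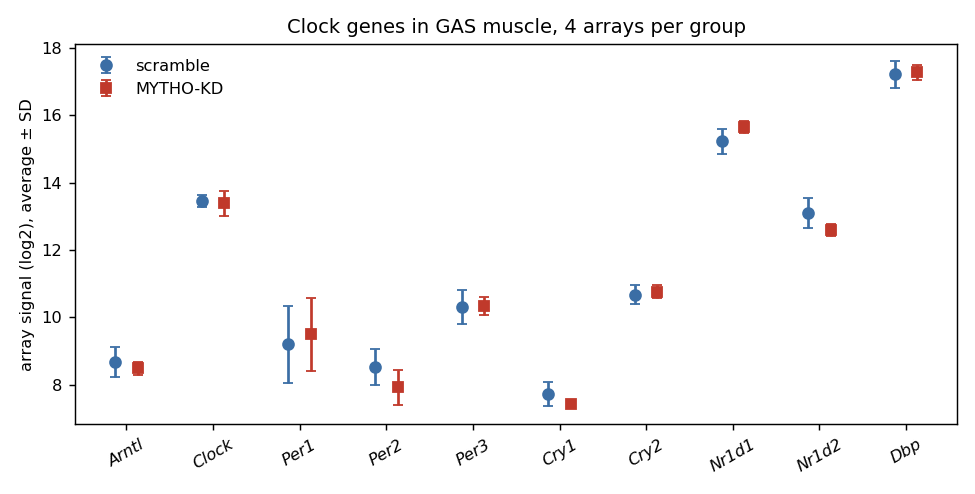
Average array signal (log2 scale, vertical axis) of each clock gene in scramble (blue circles) and MYTHO-KD muscles (red squares), 4 arrays per group, with bars for the authors' SD. For every gene the ranges of 1 SD around the averages touch or overlap, and the bars of *Per1* are the widest; levels of different genes are not comparable.

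The genes of the REV-ERB loop were those closest to a difference, and they pointed in opposite directions. *Nr1d1* lies on chromosome 11 from 98767932 to 98775377 (mm10, as are all gene positions given here). It averaged 15.23 (SD 0.38) in scramble and 15.66 (SD 0.19) in MYTHO-KD muscles. The difference of 0.43 (standard error 0.207) corresponds to a level 1.35 times that of scramble, with a 95% interval from 0.985 to 1.84 times. Its p was 0.06 before and 0.438 after adjustment (limma). The signal was higher in MYTHO-KD, and the ranges of 1 SD around the averages overlapped.

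*Nr1d2*, on chromosome 14 from 18204054 to 18239127, averaged 13.10 (SD 0.44) in scramble and 12.60 (SD 0.17) in MYTHO-KD muscles. Its signal was lower in MYTHO-KD, at 70.7% of that in scramble (difference -0.50, standard error 0.219, 95% interval from -0.98 to -0.02). Of the 10 genes this one alone had an unadjusted p under 0.05, at 0.0419, and its adjusted p was 0.394 (limma). Without moderation of the variance the unadjusted p of *Nr1d2* was 0.0783 (t-test with pooled variance). With unequal variances it was 0.104 (Welch's t-test), so that in both settings *Nr1d2* no longer passed. *Nr1d1* and *Nr1d2* encode receptors with closely related roles. Whether their differences differ from each other could not be tested, because both probe sets were read on the same arrays and the table does not tell how they vary together.

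In the positive limb, neither partner of the activating complex differed beyond its error. *Arntl*, on chromosome 7 from 113207465 to 113314126, averaged 8.68 (SD 0.45) in scramble and 8.49 (SD 0.19) in MYTHO-KD muscles. The difference was -0.19 with a 95% interval from -0.68 to 0.30 (adjusted p = 0.809, limma). *Clock*, on chromosome 5 from 76209868 to 76304792, encodes the partner of BMAL1 and averaged 13.45 (SD 0.18) in scramble and 13.39 (SD 0.37) in MYTHO-KD muscles. Its difference of -0.06 had an interval from -0.50 to 0.38 (adjusted p = 0.952, limma). For both genes the interval holds no change as large as 2-fold in either direction.

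Among the *Per* genes, which encode the rhythmic part of the repressor complex, *Per2* had the largest difference of the 10 genes. It lies on chromosome 1 from 91415982 to 91459330 and averaged 8.52 (SD 0.54) in scramble and 7.93 (SD 0.52) in MYTHO-KD muscles. The difference of -0.59 (standard error 0.302) puts the MYTHO-KD signal at 66.4% of scramble. The size of this difference was larger than in 93.6% of all probe sets, but so was the spread, since the SD pooled over the groups exceeded that of 94.6% of probe sets. The interval ran from -1.25 to 0.07, and p was 0.0746 before and 0.468 after adjustment (limma).

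*Per1*, on chromosome 11 from 69095217 to 69109960, answers to glucocorticoids and cAMP signalling as well as to the clock. It averaged 9.20 (SD 1.15) in scramble and 9.50 (SD 1.08) in MYTHO-KD muscles. Its pooled SD of 1.12 was larger than that of 99.8% of all probe sets, so that the arrays of a group differed from each other far more than the group averages did. This spread can hold differences between animals that both legs share, which could not be set apart. The difference of 0.30 had an interval from -0.96 to 1.56 (adjusted p = 0.898, limma), which leaves room for a change of over 2-fold upward. *Per3*, on chromosome 4 from 151003652 to 151044665, averaged 10.30 (SD 0.50) in scramble and 10.34 (SD 0.26) in MYTHO-KD muscles. It had the smallest difference of the 10 genes, 0.04 with an interval from -0.49 to 0.57 (adjusted p = 0.975, limma).

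The cryptochromes, the partners of the PER proteins in the repressor complex, did not differ beyond their error. *Cry1*, on chromosome 10 from 85131700 to 85185054, averaged 7.73 (SD 0.35) in scramble and 7.44 (SD 0.10) in MYTHO-KD muscles. The difference was -0.29 with an interval from -0.71 to 0.13 (adjusted p = 0.603, limma). *Cry2*, on chromosome 2 from 92403646 to 92434072, averaged 10.67 (SD 0.28) in scramble and 10.76 (SD 0.19) in MYTHO-KD muscles, a difference of 0.09 with an interval from -0.31 to 0.49 (adjusted p = 0.907, limma). *Dbp*, on chromosome 7 from 45705088 to 45710203, is a direct output of the loop with a large daily swing in many tissues. It averaged 17.22 (SD 0.39) in scramble and 17.28 (SD 0.22) in MYTHO-KD muscles, a difference of 0.06 with an interval from -0.40 to 0.52 (adjusted p = 0.955, limma).

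The SD among the arrays of a group was larger in scramble than in MYTHO-KD muscles for 9 of the 10 clock genes, the exception being *Clock*, against 49.5% of all probe sets. The median SD of the clock genes was 0.415 in scramble and 0.205 in MYTHO-KD muscles, while over all probe sets it was 0.27 in both groups. The ratio of the scramble SD to the MYTHO-KD SD was largest for *Cry1*, at 3.50, above that of 95.7% of probe sets. It was 2.59 for *Nr1d2*, 2.37 for *Arntl*, 2.00 for *Nr1d1* and 1.92 for *Per3*. For *Per1* and *Per2*, the genes with the widest spread, the ratios were 1.06 and 1.04. The SD was also the larger one in scramble for 15 of the 21 other clock genes and 14 of the 19 rhythmic output genes described below. These genes were all read on the same 8 arrays and are regulated together, so their SDs are not independent of each other, and no test of the spread was made.

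**Figure D2:**
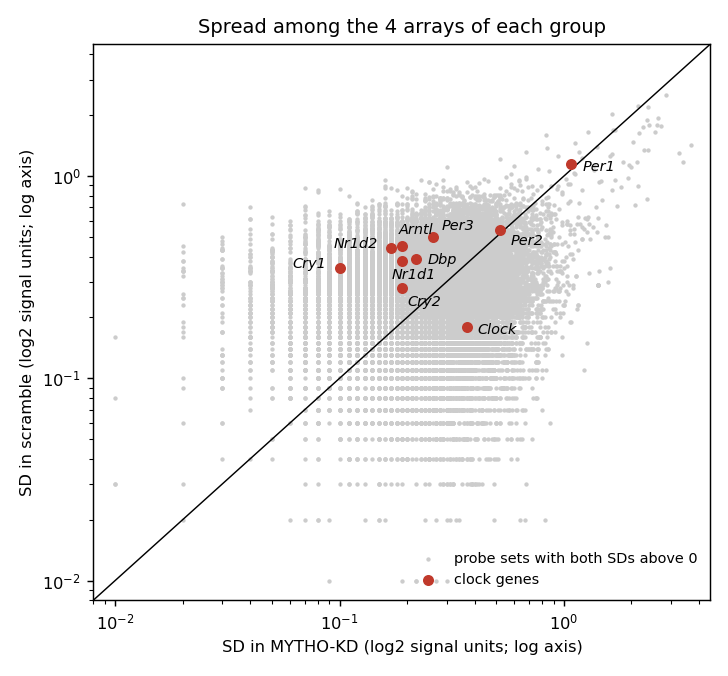
SD among the 4 arrays in scramble (vertical axis) against that in MYTHO-KD muscles (horizontal axis), both in log2 signal units on log axes; grey points are all probe sets with both SDs above 0, red points the clock genes, and the line marks equal SDs. Of the 10 clock genes, 9 lie above the line, *Per1* and *Per2* close to it, and *Clock* lies below.

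A list of 21 other genes of the clock held no call at 2-fold, against 0.86% of all probe sets called higher and 0.257% lower. A list of this size would hold few such calls in any case. Of these genes, 11 were higher and 10 lower, with a median difference of 0.01. The interval lay wholly inside 2-fold for 16 of them (76.2%), against 89.2% of all probe sets. At an unadjusted p under 0.05, 1 was higher and 2 were lower, against 6.48% and 5.52% of all probe sets. None had an adjusted p under 0.05 (lowest 0.213, limma), against 0.275% of all probe sets. The ROR receptor gene *Rora*, whose product activates *Arntl* at ROREs, had the largest difference, from 12.95 (SD 0.44) in scramble to 12.05 (SD 0.51) in MYTHO-KD muscles. Its difference was -0.90 (standard error 0.278, unadjusted p = 0.00725, adjusted p = 0.213, limma). *Rora* has 3 probe sets, of which the next brightest differed by -0.75 (standard error 0.193, unadjusted p of 0.00219, adjusted p = 0.146) and the dimmest by -0.04 (standard error 0.312, adjusted p = 0.983, limma). *Nfil3*, the repressor at D-boxes, averaged 8.05 in scramble and 8.61 in MYTHO-KD muscles, a difference of 0.56 (unadjusted p = 0.044, adjusted p = 0.402, limma). *Npas2*, which encodes a relative of CLOCK that can stand in for it, differed by -0.57 with an interval from -1.20 to 0.06 (adjusted p = 0.463, limma). The casein kinase gene *Csnk1d*, whose product marks PER proteins for breakdown, was the other gene with an unadjusted p under 0.05, at 0.0494 with a difference of -0.35 (adjusted p = 0.415, limma), and is named because of it. The D-box activators *Tef* and *Hlf* differed by 0.13 and -0.36, and both intervals held 0. *Ciart*, a repressor of CLOCK and BMAL1 whose promoter window holds E-boxes starting 116, 58 and 44 bases before the start, resembled *Per1* in its spread, with SDs of 0.85 in scramble and 1.21 in MYTHO-KD muscles.

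**Figure D3:**
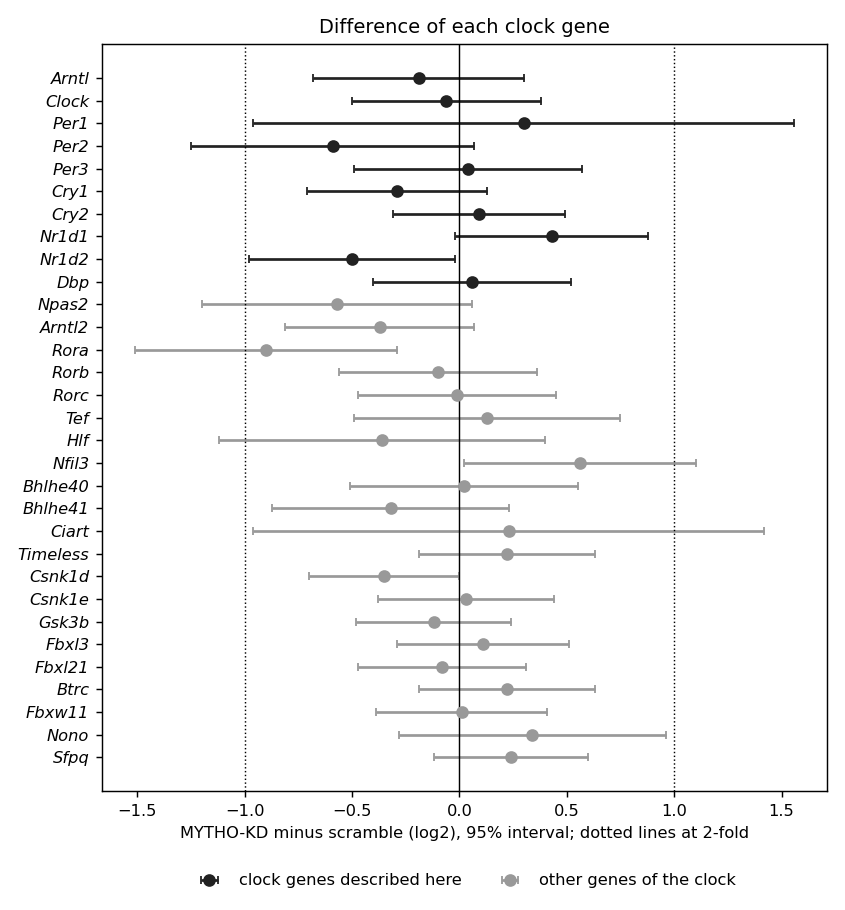
Difference between MYTHO-KD and scramble (log2, horizontal axis) for the 10 clock genes (black) and 21 other genes of the clock (grey), with 95% intervals from limma's moderated test and dotted lines at 2-fold. Among the 10, the interval of *Nr1d2* alone leaves out 0, with its upper end at -0.02, and those of *Per1* and *Per2* cross a dotted line.

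Of 19 genes known to follow the clock in many tissues or in muscle, 1 was called higher and 1 lower, against 0.86% and 0.257% of all probe sets. The median difference was 0.06, and the median size of the difference, whatever its sign, was 0.36 against 0.18 for all probe sets. The interval lay wholly inside 2-fold for 57.9% of these genes and 89.2% of all probe sets. At an unadjusted p under 0.05, 2 were higher and 2 lower, against 6.48% and 5.52% of all probe sets. *Pfkfb3*, which encodes an activator of glycolysis, fell by 2.03 on the log2 scale, from 15.99 (SD 0.39) to 13.96 (SD 0.81), and passed the adjustment over all probe sets (standard error 0.35, adjusted p = 0.0392, limma). Of all probe sets 61 passed it, against 2 without moderation of the variance and 2 with unequal variances. The adjusted p of *Pfkfb3* in those 2 settings is not given here. *Cdkn1a*, which encodes the cell cycle inhibitor p21 and also answers to p53, rose by 1.75 with an adjusted p of 0.2 (limma). *Por*, the reductase of cytochrome P450 enzymes, had the next largest difference, 0.62 (adjusted p = 0.348, limma). The fourth with an unadjusted p under 0.05 was *Nampt*, which encodes an enzyme of NAD synthesis, at -0.37 (adjusted p = 0.385, limma), and it is named because of this p.

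Glucocorticoids and immediate early signals reset the clock through *Per1*, and genes answering to them were listed for that reason. Of 15 glucocorticoid response genes, 2 were called higher and 0 lower, against 0.86% and 0.257% of all probe sets, with a median difference of 0.08. The interval lay wholly inside 2-fold for 66.7% of them, against 89.2% of all probe sets. At an unadjusted p under 0.05, 3 were higher and 1 was lower, against 6.48% and 5.52% of all probe sets. Both called genes encode metallothioneins, which bind metal ions and also answer to zinc. *Mt2* rose by 3.69 (adjusted p = 0.067, limma) and *Mt1* by 2.28 (adjusted p = 0.0742, limma), with SDs in MYTHO-KD muscles of 1.80 and 1.16. *Fkbp5*, a standard readout of the glucocorticoid receptor, differed by -0.42 (adjusted p = 0.478, limma) and is named for that role, while *Cebpd* differed by 0.77 (adjusted p = 0.213, limma). Of 14 immediate early genes 10 were higher, with a median difference of 0.335, against 10416 higher of all 22206 probe sets. At an unadjusted p under 0.05, 5 were higher and 0 lower, against 6.48% and 5.52% of all probe sets. By the 2-fold limits 2 were called higher, against 0.86% of all probe sets. These 2 calls became 1 without moderation, with trend and robust fitting, with unequal variances and without dim probe sets. *Atf3*, a stress factor, rose by 1.46 (adjusted p = 0.0888, limma) and *Egr1* by 1.34 (adjusted p = 0.413, limma). *Klf4* differed by 0.90 (adjusted p = 0.248, limma). *Dusp1* stands on both of these lists, and *Tsc22d3* and *Klf15* stand on the output and glucocorticoid lists.

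**Figure D4:**
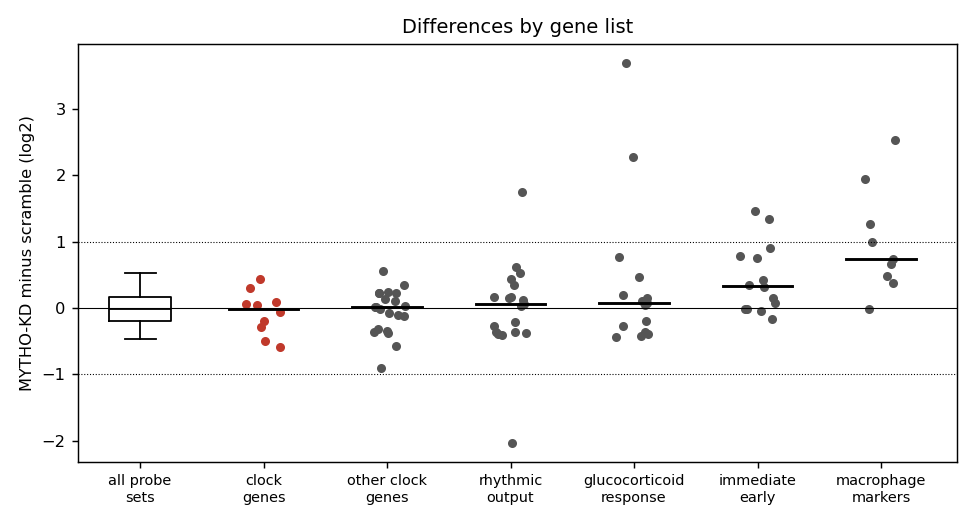
Difference between MYTHO-KD and scramble (log2, vertical axis) for each gene of 6 lists, with a bar at the median of each list and dotted lines at 2-fold; the box shows the quartiles of all probe sets and its whiskers the 5th and 95th percentiles. The 10 clock genes (red) lie between -0.59 and 0.43, while the macrophage markers have a median of 0.73.

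Clock genes are active in the many cell types of a muscle, and markers of some of these cells moved with the groups. Of 9 macrophage markers 8 were higher in MYTHO-KD muscles, with a median difference of 0.73, and 3 were called higher, against 0.86% of all probe sets: *Cd68* at 2.53, *Lyz2* at 1.94 and *C1qb* at 1.27. The median of their group averages was 6.78 in scramble and 7.70 in MYTHO-KD muscles. The marker that was not higher was *Ptprc*, at -0.02. The intervals of *C1qa* (0.66), *Adgre1* (0.48) and *Mrc1* (0.37) held 0, while those of *Csf1r* (0.99) and *C1qc* (0.73) did not. All 6 fibroblast markers were higher (median 0.77), of which *Lum* (1.49) and *Col3a1* (1.43) were called and *Col1a1* (0.82) was not, again against 0.86% of all probe sets called higher. The intervals of *Col1a1*, *Col1a2* (0.72), *Dcn* (0.28) and *Pdgfra* (0.18) held 0. All 5 endothelial markers were higher (median 0.53), led by *Kdr* (0.75), *Eng* (0.64) and *Tek* (0.53), with none called. The intervals of *Tek*, *Cdh5* (0.37) and *Pecam1* (0.22) held 0, while those of *Kdr* and *Eng* did not. The adipocyte markers *Adipoq* and *Cfd* differed widely among arrays in both groups, with SDs between 1.64 and 2.22, and 4 of 5 adipocyte markers were lower (*Cfd* at -0.78, *Adipoq* at -0.69 and *Lep* at -0.33). No adipocyte marker was called, and every marker of these lists was flagged as expressed in both groups. In such bulk RNA fewer cells of a type and less RNA per cell cannot be told apart. The part of the cell mix in the differences of the clock genes was not tested.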

How the data were processed

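Total RNA of GAS muscles, 4 per group, was hybridized to Clariom S Mouse arrays. The authors' methods name default parameters of the Transcriptome Analysis Console and SST-RMA normalization, and the submitters' processing notes name Affymetrix Expression Console and RMA. The authors deposited, per probe set, log2 averages and SDs per group (decimal commas, annotation of build mm10), flags for expression, and their own fold changes, p-values and false discovery rates, which were not used. The kind of average is not stated. If it is not the plain mean, p-values here are approximate.

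The lmFit model needs single arrays, so limma 3.58.1 (R 4.3.3) was applied to the averages and SDs: each probe set's variance was the average of the groups' variances, with 6 residual degrees of freedom, and squeezeVar then shrank it toward a prior (SD 0.284, with 5.85 degrees of freedom). The calculation was tested on simulated data. Tests are two-sided, with 95% intervals. Both legs of a mouse can be among the arrays, but the table does not tell which, so arrays were taken as independent. Any spread between animals that both legs share is therefore part of the standard errors and intervals given here. They are not those of a comparison between the legs of an animal, whose intervals could be narrower. Arrays have no sequencing depth, and their number limits the precision. No filter was applied to low signals; for 21 probe sets an SD was listed as 0.

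The clock genes and the other lists were chosen with earlier results of these data known. A list of cell type markers is not reported here. Of each list the text names the members called at 2-fold with an unadjusted p under 0.05 and the 3 with the largest difference. Other genes were named for their role or their values after these values were seen. Genes with several probe sets are given by the brightest one. Alternatives were no moderation, trend and robust fitting, unequal variances, leaving out dim probe sets (average signal under 5.715), centring, 1 probe set per symbol and other thresholds. All 10 clock genes have 1 probe set, so another choice of probe set gave no value.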

Additional observations from a re-analysis of the deposited data

How the results depend on the processing

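All 10 clock genes kept the direction of their difference under no moderation, trend and robust fitting, unequal variances, a filter on dim probe sets and centring on the median of all probe sets, and in none did an adjusted p fall under 0.324 (*Nr1d2*, trend and robust fitting). Of 50 such values, 47 stayed on the same side of an unadjusted p of 0.05. The number of clock genes under that limit, 1 at the start, was 0 without moderation, 0 with unequal variances and 2 with trend and robust fitting, where *Nr1d1* joined *Nr1d2* (unadjusted p of 0.0287, limma). The number called stayed at 0 in these settings and also at 1.5-fold and at an adjusted p under 0.05. The 61 probe sets under an adjusted p of 0.05 became 2 without moderation, 2 with unequal variances and 189 with trend and robust fitting. The 191 higher and 57 lower calls became 787 and 500 at 1.5-fold, where the limit is wider, and 40 and 21 at an adjusted p under 0.05. At 1.5-fold the calls among the 21 other clock genes went from 0 to 1, a lower one. Those among the 14 immediate early genes went from 2 to 5, all higher. Those among the rhythmic output genes and those among the glucocorticoid response genes each went from 2 to 3. Beside these stand the 787 higher and 500 lower calls among all 22206 probe sets. The 2 calls among immediate early genes became 1 without moderation, 1 with unequal variances, 1 with trend and robust fitting and 1 with the filter on dim probe sets. Those among rhythmic output genes became 1 with unequal variances and 1 at an adjusted p under 0.05, which left 0 of the 2 among glucocorticoid response genes and 0 of the 2 among immediate early genes. The cause of these shifts was not tested apart from the limits themselves. No paired analysis was possible because the columns carry group averages, and for the same reason leaving out single arrays was not run.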

Other observations

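The direction in which the spread differed was not the same in all lists. For the immediate early genes the SD was larger in scramble for 2 of 14 genes, with medians of 0.225 in scramble and 0.56 in MYTHO-KD muscles, the opposite of the clock genes. For the macrophage markers it was larger in scramble for 1 of 9 genes, with medians of 0.22 and 0.61. Among the glucocorticoid response genes it was larger in scramble for 6 of 15 genes, with medians of 0.37 and 0.39. Over all probe sets the SD was larger in scramble for 49.5%. The endothelial markers went the same way as the clock genes, with 4 of 5 genes, but with closer medians of 0.37 in scramble and 0.32 in MYTHO-KD muscles. The adipocyte markers had 3 of 5, near the share of all probe sets, with medians of 0.81 and 0.73. The fibroblast markers went the other way, with 2 of 6 genes and medians of 0.42 in scramble and 0.59 in MYTHO-KD muscles. Among the fibre markers the SD was larger in scramble for 2 of 10 genes, where *Acta1*, *Myh4* and *Atp2a1* had an SD of 0 in both groups. Their median SD was nonetheless larger in scramble, at 0.095 against 0.055 in MYTHO-KD muscles over the 10 genes. The narrower spread of the clock genes in MYTHO-KD muscles therefore stood beside a wider one in some other lists on the same arrays. Whether single arrays account for either could not be read from group averages.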
